A study of Mus musculus with 6 samples.

Results

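The genes of the tumour necrosis factor (TNF) superfamily of ligands, their receptors, the TRAF adaptors that bind those receptors inside the cell, and the genes named for induction by TNF (Tnfaip) were examined in mouse macrophages. Members were selected by gene symbol, as symbols that begin with Tnfrsf, Tnfsf or Tnfaip, Traf1 to Traf7, and Tnf, Lta, Ltb, Ltbr, Cd40, Cd27, Cd70, Fas and Fasl. This gave 56 of the 23034 genes in the table, made up of 17 ligand genes, 5 receptor genes whose products carry a death domain, 15 receptor genes whose products bind TRAFs, 4 genes of decoy or less studied receptors, 7 TRAF genes and 8 Tnfaip genes. The ligand gene Cd40lg, for one, is not reached by these symbols.

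RNA was sequenced from wild-type mouse bone marrow-derived macrophages. M-CSF (10 ng/ml) was used to grow macrophages from the marrow, and interleukin-4 (IL-4, 20 ng/ml) to turn them into M2 macrophages over 24 hours. They were then reseeded and given PBS (control, 3 libraries) or SA@BATMAN5 (3 libraries) for 24 hours, so that all libraries share the IL-4 step. It is not stated whether IL-4 remained during the treatment, or at what dose SA@BATMAN5 was given. The series title links the work to clusters of tuftsin, an immunoglobulin-derived peptide, aimed at Fc gamma receptors, and to infections that follow sepsis. Whether the replicates were separate animals or cultures is not stated, so the spread that p-values rest on is that among the libraries at hand and may be technical.

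Most ligands of the family are made as membrane proteins on immune cells, and many can be cut free to act at a distance. Their receptors either carry a death domain, through which they can start apoptosis or necroptosis, or recruit TRAF adaptors, which pass the signal to NF-kappaB and MAP kinases. In macrophages TNF is an early inflammatory cytokine, CD40 receives help from T cells, and RANK (Tnfrsf11a) directs the formation of osteoclasts, while A20 (Tnfaip3) and TRAF3 restrain NF-kappaB signalling.

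Library totals were 38740103 to 47018154 counts in controls and 29739263 to 37212125 with SA@BATMAN5, so that the groups did not overlap in depth. A floor of 3 counts stood for 0.0620 to 0.103 CPM per library. CPM here means counts per 1000000 counts in tested genes, with TMM-scaled totals. Levels are given per library in the order of replicates 1, 2 and 3, and fold changes are SA@BATMAN5 over control ± SE from edgeR's quasi-likelihood test, with Benjamini-Hochberg adjustment over the 13474 genes tested and a threshold of 0.05. Of the macrophage markers, all 6 (Adgre1, Csf1r, Cd68, Itgam, Fcgr1 and Mertk) were measured in both groups, with summed levels of 5739 to 5946 and 8013 to 8068 CPM. The markers did not move together, since 4 were called higher and 2 lower. On the log2 scale Adgre1 rose by 1.74 ± 0.04, Csf1r by 0.87 ± 0.03, Fcgr1 by 2.38 ± 0.08 and Mertk by 0.37 ± 0.04. Cd68 and Itgam fell, with log2 fold changes of -0.24 ± 0.03 and -0.42 ± 0.03. Markers of other cells were low but for stromal ones, whose sum was 769 to 955 CPM in controls and 1082 to 1247 CPM with SA@BATMAN5. The 7 neutrophil markers summed to 8.72 to 8.99 CPM in controls and 59.4 to 70.1 CPM with SA@BATMAN5, most of it S100a8. S100a9 was also called higher, from 1.73 ± 0.238 to 3.10 ± 0.378 CPM (SD, n = 3). Cxcr2 fell from 1.40 ± 0.160 to 0.179 ± 0.264 CPM (SD, n = 3), and Ly6g, Mpo and Retnlg were at 0. The 5 endothelial markers summed to 6.38 to 7.19 and 2.40 to 2.89 CPM, a difference carried by Pecam1 (5.06 ± 0.332 and 1.02 ± 0.506 CPM), while Cdh5 and Kdr overlapped between the groups. In bulk RNA, fewer cells of a type and less RNA per cell cannot be told apart.

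Start-site regions show what sequence lies in front of the members that moved most. RefSeq's table for GRCm38.p6, another build than the authors' GRCm39, held a region for 46 of the 56 members. The 250 bases upstream of the start were taken for the genes with the largest rises (Tnfsf15, Traf1 and Tnf) and falls (Tnfrsf18 and Tnfsf13) that the table held. Tnfaip3 was added after its matches were seen, since it held matches to 4 of the 6 motifs searched. Where a gene had more than a single region, the one with the most matches was printed. This was so for Tnfaip3, whose other region held no match. Capitals mark matches, on either strand, to the NF-kappaB consensus, ISRE (GAAA, any 2 bases, GAAA), GAS (TTCNNNGAA), the STAT6 site (TTC, any 4 bases, GAA), AP-1 (TGANTCA) or the TATA box (TATAAA), and all sequences read 5′ to 3′ along the gene's strand. They lie on the minus strand at chr4:63745060-63745309 (Tnfsf15), chr2:34961773-34962022 (Traf1), chr17:35202008-35202257 (Tnf), chr10:19015411-19015660 (Tnfaip3) and chr11:69685555-69685804 (Tnfsf13), and on the plus strand at chr4:156026072-156026321 (Tnfrsf18).
Tnfsf15: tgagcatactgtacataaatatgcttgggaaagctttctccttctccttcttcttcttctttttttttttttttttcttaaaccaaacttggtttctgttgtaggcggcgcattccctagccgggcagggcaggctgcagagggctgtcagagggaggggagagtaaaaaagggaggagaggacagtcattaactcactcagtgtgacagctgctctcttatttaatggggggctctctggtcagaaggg
Traf1: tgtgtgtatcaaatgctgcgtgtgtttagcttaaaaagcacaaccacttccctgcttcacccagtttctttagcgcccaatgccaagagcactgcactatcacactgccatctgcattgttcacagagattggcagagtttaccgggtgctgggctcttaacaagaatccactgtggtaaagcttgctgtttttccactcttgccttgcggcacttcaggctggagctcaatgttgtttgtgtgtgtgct
Tnf: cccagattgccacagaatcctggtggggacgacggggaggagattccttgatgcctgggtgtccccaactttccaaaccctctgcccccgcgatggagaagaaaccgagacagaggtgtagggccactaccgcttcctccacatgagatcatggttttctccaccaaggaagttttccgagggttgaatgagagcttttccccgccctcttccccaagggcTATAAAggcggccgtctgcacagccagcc
Tnfaip3: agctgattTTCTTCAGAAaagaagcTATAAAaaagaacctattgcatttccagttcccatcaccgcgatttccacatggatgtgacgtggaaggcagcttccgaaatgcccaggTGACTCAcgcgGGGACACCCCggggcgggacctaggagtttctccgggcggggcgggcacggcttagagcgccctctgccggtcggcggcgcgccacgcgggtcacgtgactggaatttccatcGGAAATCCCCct
Tnfrsf18: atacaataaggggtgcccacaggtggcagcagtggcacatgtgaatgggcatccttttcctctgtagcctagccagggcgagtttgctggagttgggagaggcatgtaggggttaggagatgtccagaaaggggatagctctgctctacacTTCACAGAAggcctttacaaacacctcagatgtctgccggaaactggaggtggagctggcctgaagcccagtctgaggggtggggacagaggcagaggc
Tnfsf13: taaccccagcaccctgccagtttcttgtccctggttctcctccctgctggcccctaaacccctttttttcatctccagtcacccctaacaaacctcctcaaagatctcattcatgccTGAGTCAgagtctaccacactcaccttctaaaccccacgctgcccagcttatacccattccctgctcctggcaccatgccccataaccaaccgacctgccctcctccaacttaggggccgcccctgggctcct

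Of these regions, that of Tnf held a TATA box 29 to 24 bases before the start. The printed region of Tnfaip3 held the NF-kappaB consensus at 125 to 116 and at 12 to 3 bases before the start and AP-1 at 136 to 130. It also held the letters of a STAT6 site at 242 to 233 and the letters TATAAA at 225 to 220. Those of Tnfsf15 and Traf1 held none of the 6 motifs, which says only that these letters are not in this window. The GAS letters stood in that of Tnfrsf18 and the AP-1 letters in that of Tnfsf13.

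Members of the family were called in both directions. Of the 56 members, 46 passed the filter on low counts and were tested, 23 were higher and 12 lower with SA@BATMAN5, and 11 did not pass the test. Over all genes tested 58.2% were called, 29.5% higher and 28.7% lower. With upper-quartile scaling that split over all genes was 3239 higher and 4791 lower, against 3980 and 3866 with TMM, while the members stood at 20 higher and 15 lower. Calls of 2-fold or more numbered 18 higher and 6 lower members, where 9.17% and 7.35% of all tested genes had one. The median size of the log2 fold change was 1.07 over tested members and 0.31 over all tested genes. These counts are a description, since 7 of the tested members passed the filter only through their SA@BATMAN5 libraries and 2 only through their controls. A group counts here as passing if all 3 of its libraries reached the cut. This selection favoured a difference in those 9, though Tnfsf14 among them was not called. Among the 37 members that passed the filter in both groups, 17 were higher and 10 lower, 12 and 4 of them by 2-fold or more. The median size of their log2 fold change was 0.70. The matching shares and median over all genes that pass in both groups were not computed, so these values have no background of their own.

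**Figure D1:**
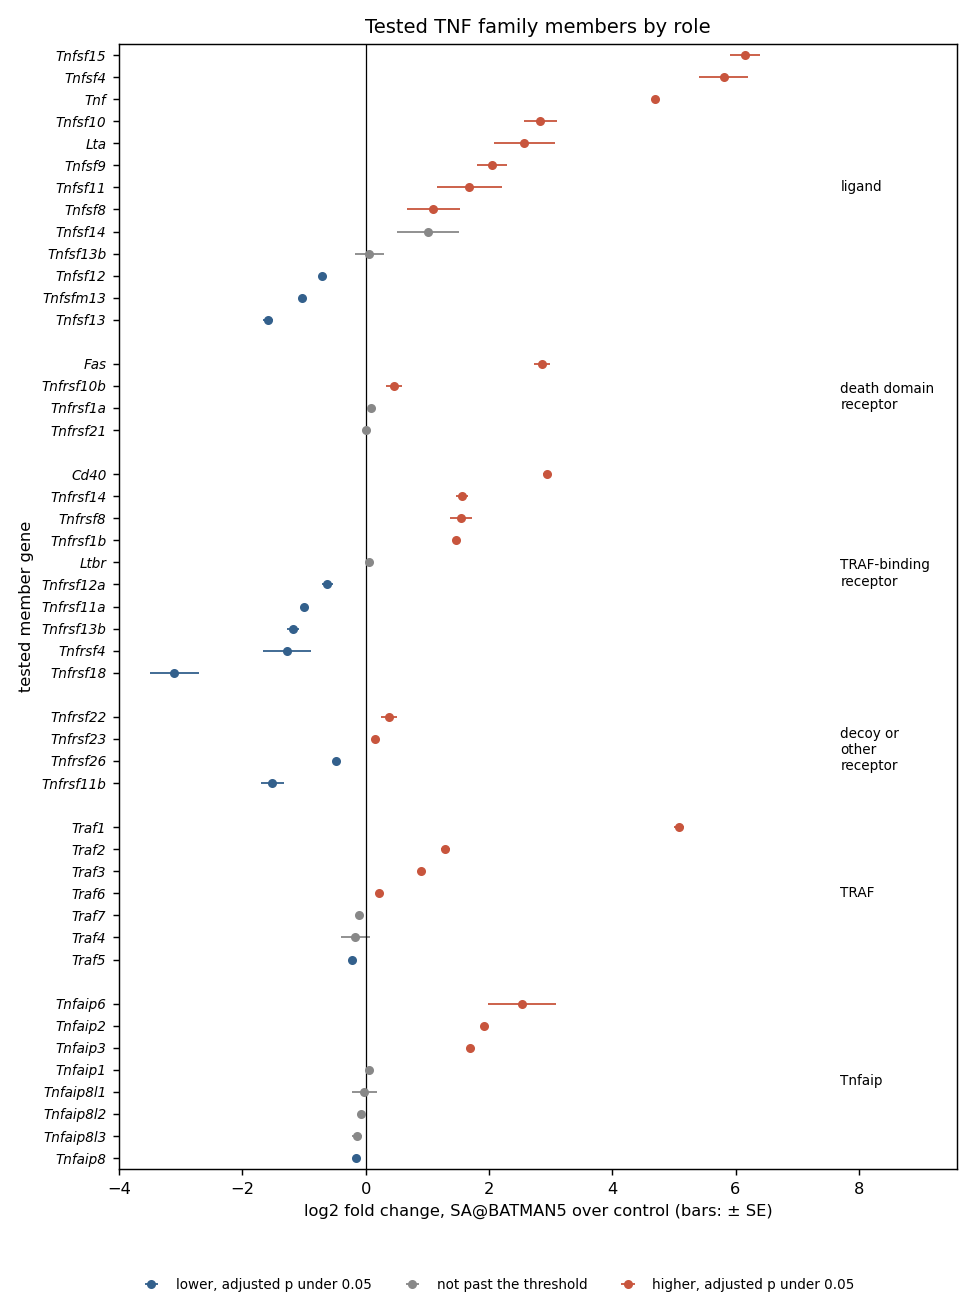
Log2 fold change of each tested member, SA@BATMAN5 over control, on the horizontal axis with bars of ± SE, grouped by role on the vertical axis. Ligands span from -1.59 (Tnfsf13) to 6.15 (Tnfsf15), while 4 of 8 Tnfaip genes lie near 0 in grey.

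The ligand genes were led by Tnf, whose product is the founding cytokine of the family. Tnf stood at 11.9, 12.6 and 12.6 CPM in controls and at 298, 338 and 328 CPM with SA@BATMAN5. The groups were far apart, with a log2 fold change of 4.70 ± 0.05 (adjusted p = 7.21e-17, edgeR), or 26.0-fold. Per transcript length (FPKM), Tnf was 4th among the 17 ligand genes in controls, at 6.41 ± 0.172 FPKM (SD, n = 3), and 1st with SA@BATMAN5, at 159 ± 11.5 FPKM. Its share of the summed ligand FPKM was 6.88% to 7.51% in control libraries and 75.0% to 77.2% in SA@BATMAN5 libraries. That sum counts Tnfsfm13, Tnfsf12 and Tnfsf13 as separate rows, though they may share reads, as given below. Their mean FPKM were 31.5, 22.0 and 26.5 in controls and 15.7, 12.8 and 8.30 with SA@BATMAN5. The share and the rank in controls are uncertain to that extent.

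The widest relative rises, those of Tnfsf15 and Tnfsf4, belonged to ligands that were close to absent in controls. Tnfsf10 and Tnfsf9, also low in controls, rose less than Tnf. Tnfsf15, whose product TL1A binds death receptor 3, was at 0.235, 0.652 and 0.805 CPM in controls and at 38.3, 44.0 and 38.4 CPM with SA@BATMAN5. That was a log2 fold change of 6.15 ± 0.25 (adjusted p = 1.56e-12, edgeR), and control replicate 1 was the lowest of all. Tnfsf4, which encodes the T cell costimulator OX40 ligand, was at 0.107, 0.175 and 0.0620 CPM and then at 5.06, 7.54 and 6.74 CPM. Its control libraries held 15 counts in all against 645 in the treated ones, for a log2 fold change of 5.81 ± 0.40 (adjusted p = 8.31e-10, edgeR). Tnfsf10, the gene of the death ligand TRAIL, went from 0.448, 0.777 and 0.413 CPM to 4.00, 3.41 and 4.17 CPM (log2 fold change 2.84 ± 0.27). Tnfsf9, which encodes the ligand of 4-1BB, went from 0.640, 0.752 and 0.640 CPM to 2.59, 3.10 and 2.73 CPM (log2 fold change 2.05 ± 0.24). In each of these 4 genes every SA@BATMAN5 library lay above every control library. The share of all tested genes whose groups separate in this way was not computed. Such separation, here and below, is therefore a description of each gene.

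Further ligand genes rose at levels under 1 CPM in both groups. Lta, the gene of lymphotoxin alpha, was at 0.149, 0.100 and 0.124 CPM in controls and at 0.556, 0.999 and 0.746 CPM with SA@BATMAN5 (log2 fold change 2.57 ± 0.50, adjusted p = 0.000297, edgeR). Tnfsf11, which encodes the RANK ligand, was at 0.278, 0.175 and 0.0826 CPM and at 0.500, 0.448 and 0.773 CPM with SA@BATMAN5 (adjusted p = 0.0118, edgeR). That call was lost without control replicate 3 (adjusted p = 0.0631) or SA@BATMAN5 replicate 3 (0.0742), and stromal cells, which can express this gene, left marker transcripts in both groups as given above; their part in it was not tested. Tnfsf8, the gene of the CD30 ligand, passed barely, at 0.274 ± 0.0930 and 0.590 ± 0.0450 CPM (SD, n = 3, adjusted p = 0.0397, edgeR), and no longer passed when any 1 library was left out (adjusted p from 0.0533 to 0.161). Tnfsf14, which encodes LIGHT, averaged 0.184 ± 0.0628 CPM in controls and 0.378 ± 0.0406 CPM with SA@BATMAN5 and missed the threshold (adjusted p = 0.0938, edgeR).

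The ligand genes that fell were those of TWEAK and APRIL, the most abundant in controls. Tnfsf13, whose product APRIL sustains plasma cells, fell from 46.9, 43.3 and 43.6 CPM to 14.5, 12.9 and 17.1 CPM, a log2 fold change of -1.59 ± 0.08 (adjusted p = 8.20e-10, edgeR). Tnfsf12, whose product TWEAK binds Fn14, fell from 36.3, 34.9 and 37.8 CPM to 22.9, 23.0 and 21.1 CPM (log2 fold change -0.70 ± 0.06). Tnfsfm13 is the joint transcription unit that reads through both genes, and it fell from 81.7, 79.5 and 78.2 CPM to 39.4, 40.1 and 37.1 CPM (log2 fold change -1.04 ± 0.04). All SA@BATMAN5 libraries lay below all controls in the 3 rows. In RefSeq's GRCm38.p6 annotation Tnfsfm13 spans both Tnfsf12 and Tnfsf13, so the same reads could be assigned to any of them and the separate levels are uncertain. Tnfsf13b, the gene of the B cell survival factor BAFF, was at 1.67, 1.30 and 1.57 CPM and at 1.70, 1.62 and 1.44 CPM (adjusted p = 0.844, edgeR). Its deposited FPKM were less even, at 0.839 in control replicate 1 against 0.302 and 0.304 in the other controls.

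Of the 17 ligand genes, 8 rose, 3 fell and 2 did not pass the test, and 4 were too low to test. Over all tested genes, 29.5% were higher and 28.7% lower. Of the 8 ligand genes that rose, Lta, Tnfsf4, Tnfsf8, Tnfsf11 and Tnfsf15 passed the filter only through their SA@BATMAN5 libraries. The filter thus favoured a rise in these genes, and the count is a description. Those too low to test were Ltb (9 control counts and 39 with SA@BATMAN5), Tnfsf18 (7 and 4), Cd70 (4 and 0) and Fasl (0 and 2), whose products are known mainly from lymphocytes and antigen-presenting cells. The T cell markers Cd3d, Cd3e and Cd3g and the NK cell marker Ncr1 had 0 counts in all 6 libraries, which allows up to 3 counts each. The 10 lymphocyte markers summed to 3.47 to 5.40 CPM in controls and 6.96 to 10.4 CPM with SA@BATMAN5, most of it Cd4 and Klrb1c. Of the 3 markers tested, 2 were called higher and Cd4 did not pass. The 2 were Klrb1c (0.813 ± 0.230 to 3.27 ± 0.841 CPM, SD, n = 3) and Cd79a (20 to 40 counts in all). Ms4a1, not tested, held 87 counts in SA@BATMAN5 replicate 3 and 0 in the other SA@BATMAN5 libraries. The part of lymphocytes in the rise of Lta, Tnfsf4 and the other lymphocyte-associated ligands was not tested.

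**Figure D2:**
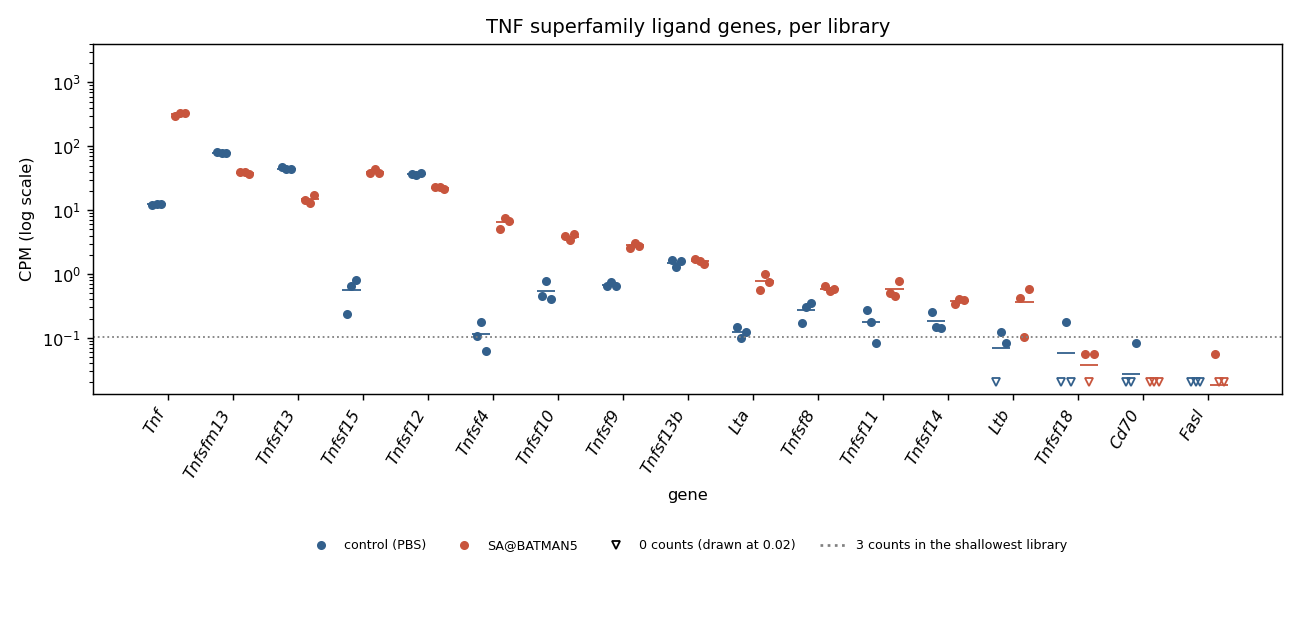
Level of each ligand gene in each library, as CPM on a log scale, with control libraries in blue, SA@BATMAN5 libraries in red, short lines at the group means, open triangles at 0 counts and a dotted line at 3 counts in the shallowest library. Tnf rises from about 12.4 to 321 CPM, Tnfsf15 and Tnfsf4 rise from under 1 CPM, and Tnfsf12, Tnfsf13 and Tnfsfm13 fall.

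Both receptors for TNF were abundant, and they differed in what SA@BATMAN5 did to them. Tnfrsf1b, the gene of TNFR2, which lacks a death domain and binds TRAF2, rose from 550.4, 570.1 and 575.8 CPM to 1563, 1576 and 1540.2 CPM (log2 fold change 1.46 ± 0.03, adjusted p = 1.27e-14, edgeR). By FPKM it was the highest of all 56 members in both groups, at 126 ± 2.59 and 330.4 ± 8.30 FPKM (SD, n = 3). Tnfrsf1a, the gene of the death-domain receptor TNFR1, was at 135, 142 and 138 CPM in controls and at 148, 141 and 150.0 CPM with SA@BATMAN5, and the groups overlapped (log2 fold change 0.08 ± 0.04, adjusted p = 0.0778, edgeR). It passed without SA@BATMAN5 replicate 2 (adjusted p = 0.0403), with a log2 fold change of 0.11. The FPKM ratio of Tnfrsf1b to Tnfrsf1a was 2.30, 2.26 and 2.36 in controls and 5.93, 6.31 and 5.79 with SA@BATMAN5, ranges that lay well apart.

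Among the other death-domain receptors Fas rose. Fas, which triggers apoptosis when bound by Fas ligand, went from 2.26, 1.75 and 2.07 CPM to 14.04, 14.2 and 16.3 CPM, with no overlap (log2 fold change 2.87 ± 0.13, adjusted p = 1.20e-10, edgeR). Its own ligand gene was near 0 in both groups, as given above. Tnfrsf10b, the mouse receptor for TRAIL, went from 4.89, 4.84 and 5.02 CPM to 5.67, 7.13 and 7.57 CPM (adjusted p = 0.00869, edgeR), a call lost without SA@BATMAN5 replicate 3 (adjusted p = 0.0520). Tnfrsf21, which encodes death receptor 6, stood at 77.0 ± 0.719 and 77.6 ± 1.69 CPM (SD, n = 3, log2 fold change 0.01 ± 0.04), and its sign changed under upper-quartile scaling and with library totals only. Tnfrsf25, the gene of the TL1A receptor, had 19 control counts, most in 1 library, and 2 counts with SA@BATMAN5, and was not tested.

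Of the 15 TRAF-binding receptor genes 10 were tested. Among these 4 rose and 5 fell, where 29.5% of all tested genes were higher and 28.7% lower. Of the 5 that fell, Tnfrsf4 and Tnfrsf18 passed the filter only through controls. Cd40, the receptor for CD40 ligand on T cells, rose from 9.42, 9.90 and 9.95 CPM to 79.5, 73.0 and 71.6 CPM (log2 fold change 2.94 ± 0.06, adjusted p = 1.88e-14, edgeR), and from 7th to 2nd in FPKM among these receptors. Tnfrsf14, the gene of HVEM, which binds LIGHT, rose from 6.34, 5.06 and 5.47 CPM to 16.7, 16.7 and 16.5 CPM (log2 fold change 1.56 ± 0.10). Tnfrsf8, the gene of CD30, rose from 1.81, 2.56 and 1.76 CPM to 5.87, 6.58 and 5.39 CPM (log2 fold change 1.54 ± 0.18). In all of these the groups were separate. Cd40 is also known from dendritic cells, whose marker Ccr7 rose from 0.0894 ± 0.00948 to 3.27 ± 0.377 CPM (SD, n = 3), while Flt3, Cd209a and Siglech had 0 counts. Zbtb46 (2.44 and 2.03 CPM), Xcr1 (1.49 and 1.34 CPM) and Clec9a (0.930 and 0.523 CPM) had lower means with SA@BATMAN5 and were not called. The 7 dendritic cell markers summed to 4.74 to 5.12 CPM and 6.63 to 7.58 CPM, and of the 4 tested only Ccr7 rose. The part of dendritic cells in the rise of Cd40 was not tested.

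The TRAF-binding receptor genes that fell included RANK. Tnfrsf11a, the gene of RANK, fell from 124, 129 and 122 CPM to 62.5, 61.8 and 63.8 CPM (log2 fold change -0.997 ± 0.04, adjusted p = 2.11e-11, edgeR). Tnfrsf13b, whose product TACI binds APRIL and BAFF, fell from 30.5, 30.5 and 27.0 CPM to 13.2, 14.9 and 10.9 CPM (log2 fold change -1.18 ± 0.10). Tnfrsf12a, the gene of the TWEAK receptor Fn14, fell from 19.3, 18.9 and 20.2 CPM to 11.2, 13.0 and 13.8 CPM (log2 fold change -0.62 ± 0.09). These 3 fell without overlap between the groups, at levels above 10 CPM throughout.

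The widest fall among all members was at a low level. Tnfrsf18, the gene of the T cell costimulatory receptor GITR, went from 1.43, 2.18 and 1.57 CPM to 0.250, 0.207 and 0.138 CPM, or from 230 counts in all to 20 (log2 fold change -3.10 ± 0.40, adjusted p = 5.59e-06, edgeR). Tnfrsf4, the gene of OX40, went from 0.833, 1.18 and 0.847 CPM to 0.389, 0.551 and 0.249 CPM (adjusted p = 0.0121, edgeR), and did not pass without control replicate 2 (adjusted p = 0.0617) or SA@BATMAN5 replicate 3 (0.0564). Ltbr, the gene of the lymphotoxin beta receptor, stood at 58.9, 60.2 and 54.6 CPM and at 58.7, 59.9 and 62.8 CPM, overlapping (log2 fold change 0.06 ± 0.05, adjusted p = 0.290, edgeR), with the opposite sign under library totals only and upper-quartile scaling. The other 5 were too low to test, with Cd27, Tnfrsf9, Tnfrsf17, Tnfrsf19 and Tnfrsf13c at 17, 8, 10, 12 and 0 control counts and 15, 29, 0, 24 and 0 counts with SA@BATMAN5.

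All 4 genes of decoy or less studied receptors were called, 2 higher and 2 lower, where 58.2% of all tested genes were called. Tnfrsf11b, which encodes osteoprotegerin, a soluble decoy for the RANK ligand, fell from 10.8, 11.8 and 15.7 CPM to 3.06, 5.06 and 5.30 CPM (log2 fold change -1.52 ± 0.19, adjusted p = 8.23e-06, edgeR). Osteoprotegerin is made by stromal cells, and of the 8 stromal markers 5 rose, Cxcl12 fell from 19.4 ± 2.17 to 5.64 ± 0.858 CPM (SD, n = 3) and Lum was at 0; their part in its fall was not tested. Tnfrsf26 fell from 59.0, 59.6 and 61.6 CPM to 42.5, 44.5 and 42.6 CPM (log2 fold change -0.48 ± 0.04). Its neighbours Tnfrsf22 and Tnfrsf23, mouse decoy receptors for TRAIL, were called higher by 0.38 ± 0.13 and 0.15 ± 0.06 on the log2 scale (adjusted p = 0.0216 and 0.0367, edgeR). The libraries of Tnfrsf22 overlapped, at 10.2, 7.19 and 9.02 CPM and 11.6, 10.2 and 12.7 CPM. Its call was lost without control replicate 2 (adjusted p = 0.0937), SA@BATMAN5 replicate 1 (0.0516) or SA@BATMAN5 replicate 3 (0.0991), and that of Tnfrsf23 without control replicate 1 or 2 or SA@BATMAN5 replicate 2 or 3 (0.104, 0.103, 0.108 and 0.138), and both were lost with library totals only (0.0531 and 0.265) or under upper-quartile scaling (0.0589 and 0.305). The 2 are close paralogs, so reads may be divided between them.

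**Figure D3:**
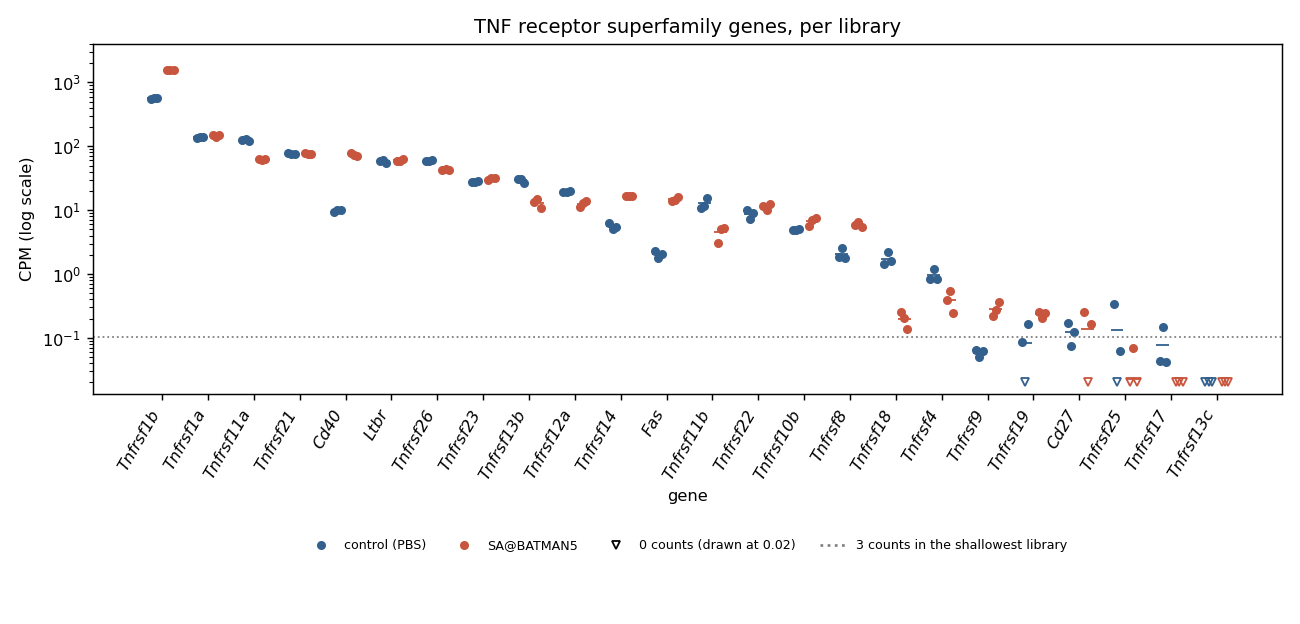
Level of each receptor gene in each library, as CPM on a log scale, with the same colours, lines and symbols as the ligand plot. Tnfrsf1b is the highest in both groups, Cd40 and Fas rise, Tnfrsf11a, Tnfrsf13b and Tnfrsf18 fall, and the libraries of Tnfrsf1a and Tnfrsf21 overlap.

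Known ligand and receptor pairs are set side by side here, and no test of the pairings was made. Called higher together were Tnf and Lta with Tnfrsf1b, Tnfsf10 with Tnfrsf10b, and Tnfsf8 with Tnfrsf8. Tnfsf12 and Tnfrsf12a fell together, as did Tnfsf13 and the receptor gene Tnfrsf13b. Called in opposite directions were Tnfsf4 (higher) with Tnfrsf4 (lower), and Tnfsf11 (higher) with Tnfrsf11a and the decoy Tnfrsf11b (lower). The filter favoured some of these directions, since Lta, Tnfsf4, Tnfsf8 and Tnfsf11 passed it only through SA@BATMAN5 libraries and Tnfrsf4 only through controls. The pairs that hold these genes are therefore a description. The calls on Tnfrsf4, Tnfsf11, Tnfrsf10b and Tnfsf8 were each lost when some single library was left out, as given above. Tnfrsf1a did not pass the test. Fas and Tnfsf15 rose while their partner genes Fasl and Tnfrsf25 were too low to test.

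Of the 7 TRAF adaptor genes 4 rose, 1 fell and 2 did not pass, where 29.5% of all tested genes were higher and 28.7% lower. Traf1, whose product joins TRAF2 and the cIAP ubiquitin ligases, rose from 2.90, 2.41 and 2.50 CPM to 90.0, 86.8 and 88.9 CPM, with libraries of each group close together (log2 fold change 5.08 ± 0.08, adjusted p = 2.60e-16, edgeR). Traf2, the main adaptor of TNF receptors, rose from 12.0, 14.2 and 12.8 CPM to 29.9, 31.9 and 33.7 CPM (log2 fold change 1.29 ± 0.08). Traf3, which holds down the non-canonical NF-kappaB route, rose from 28.4, 28.1 and 29.6 CPM to 54.9, 51.6 and 53.9 CPM (log2 fold change 0.90 ± 0.05). Traf6, a ubiquitin ligase used by CD40, RANK and Toll-like receptors, rose from 37.5, 34.8 and 34.0 CPM to 40.1, 41.2 and 42.1 CPM (log2 fold change 0.22 ± 0.05, adjusted p = 0.00334, edgeR). The libraries did not overlap in any of these 4 genes, though for Traf6 they lay close.

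The other TRAF genes were lower or did not pass. Traf5, an adaptor related to TRAF2, fell from 51.3, 47.0 and 49.6 CPM to 41.8, 45.5 and 40.3 CPM (log2 fold change -0.21 ± 0.06, adjusted p = 0.00464, edgeR). Traf7, a more distant relative, was at 55.5, 57.8 and 58.1 CPM and at 52.1, 55.3 and 52.5 CPM with SA@BATMAN5 (log2 fold change -0.10 ± 0.04, adjusted p = 0.0709, edgeR). It passed as lower without control replicate 1 (adjusted p = 0.0463) or SA@BATMAN5 replicate 2 (0.0440) and with library totals only (0.00463) or upper-quartile scaling (0.00327). Traf4 was at 2.35, 2.48 and 2.40 CPM and at 1.61, 1.89 and 2.90 CPM, overlapping (adjusted p = 0.559, edgeR).

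These changes altered the order of TRAF levels per transcript length. In controls Traf5 and Traf7 came first at 18.9 ± 0.866 and 18.8 ± 0.423 FPKM (SD, n = 3), closer than their spread. Traf6, Traf2 and Traf3 followed at 4.94 ± 0.307, 4.08 ± 0.184 and 3.57 ± 0.0731 FPKM, with Traf1 at 1.06 ± 0.223 and Traf4 at 0.984 ± 0.0251 FPKM, again within the spread of each other. With SA@BATMAN5 Traf1 stood first at 33.1 ± 1.04 FPKM, ahead of Traf7 at 16.4 ± 0.526 and Traf5 at 15.5 ± 1.21 FPKM, which lay within their spread. Traf2 was at 10.0 ± 0.429, Traf3 at 6.45 ± 0.211, Traf6 at 5.49 ± 0.129 and Traf4 at 0.821 ± 0.259 FPKM.

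**Figure D4:**
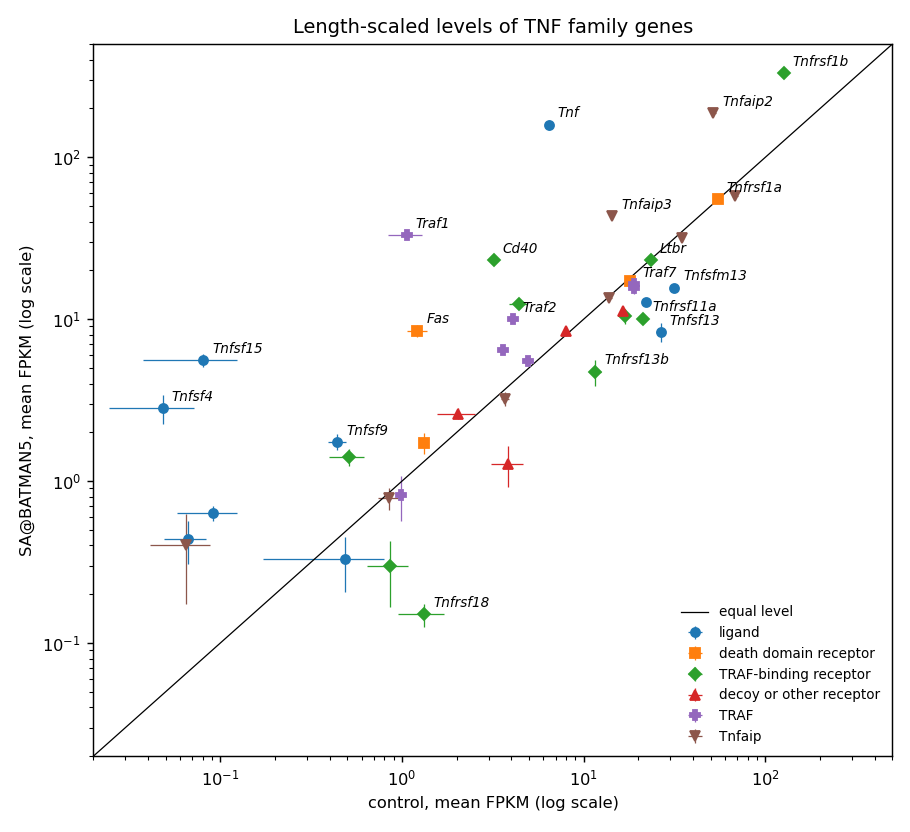
Mean FPKM with SD bars (n = 3) in control libraries on the horizontal axis and SA@BATMAN5 libraries on the vertical axis, both on log scales, for the 43 members that reached 0.3 FPKM in 1 group, with symbols by role and a line of equal level. Tnf and Traf1 lie far above the line, Tnfrsf1a lies on it, and Tnfsf13, Tnfrsf11a and Tnfrsf18 lie below it.

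Of the 8 Tnfaip genes 3 rose, 1 fell and 4 did not pass, so that 50% were called, against 58.2% of all tested genes. Of those that rose, Tnfaip6 passed the filter only through SA@BATMAN5 libraries. Tnfaip3, the gene of A20, a ubiquitin-editing enzyme that shuts off TNF receptor signalling, rose from 70.5, 69.0 and 69.2 CPM to 224, 227 and 225 CPM (log2 fold change 1.69 ± 0.03, adjusted p = 1.27e-14, edgeR). Tnfaip2, a gene known as induced by TNF, rose from 234, 224 and 219.5 CPM to 852, 878 and 846 CPM (log2 fold change 1.93 ± 0.03). Tnfaip6, which encodes the secreted hyaluronan-binding protein TSG-6, was at 0.149, 0.100 and 0.186 CPM and then at 0.445, 0.758 and 1.41 CPM with SA@BATMAN5 (log2 fold change 2.54 ± 0.55, adjusted p = 0.000833, edgeR), with a wide spread among the SA@BATMAN5 libraries. Tnfaip2 was second only to Tnfrsf1b in FPKM among all members with SA@BATMAN5, at 187 ± 6.59 FPKM (SD, n = 3).

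The TIPE genes, named after Tnfaip8, changed little. Tnfaip8 fell from 159, 148 and 156 CPM to 136, 139.6 and 139.5 CPM (log2 fold change -0.16 ± 0.04, adjusted p = 0.00246, edgeR). Tnfaip8l2, whose product TIPE2 is known as a restraint on innate immune signalling, stood at 46.1 ± 0.936 and 43.9 ± 1.39 CPM (SD, n = 3, log2 fold change -0.07 ± 0.05). Tnfaip8l1 and Tnfaip8l3 had log2 fold changes of -0.02 ± 0.20 and -0.14 ± 0.08, and Tnfaip1, an adaptor of a cullin ubiquitin ligase, 0.05 ± 0.05. Tnfaip8l2 and Tnfaip8l3 passed as lower with library totals only (adjusted p = 0.0175 and 0.0333, edgeR) or under upper-quartile scaling (0.0131 and 0.0273).

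**Figure D5:**
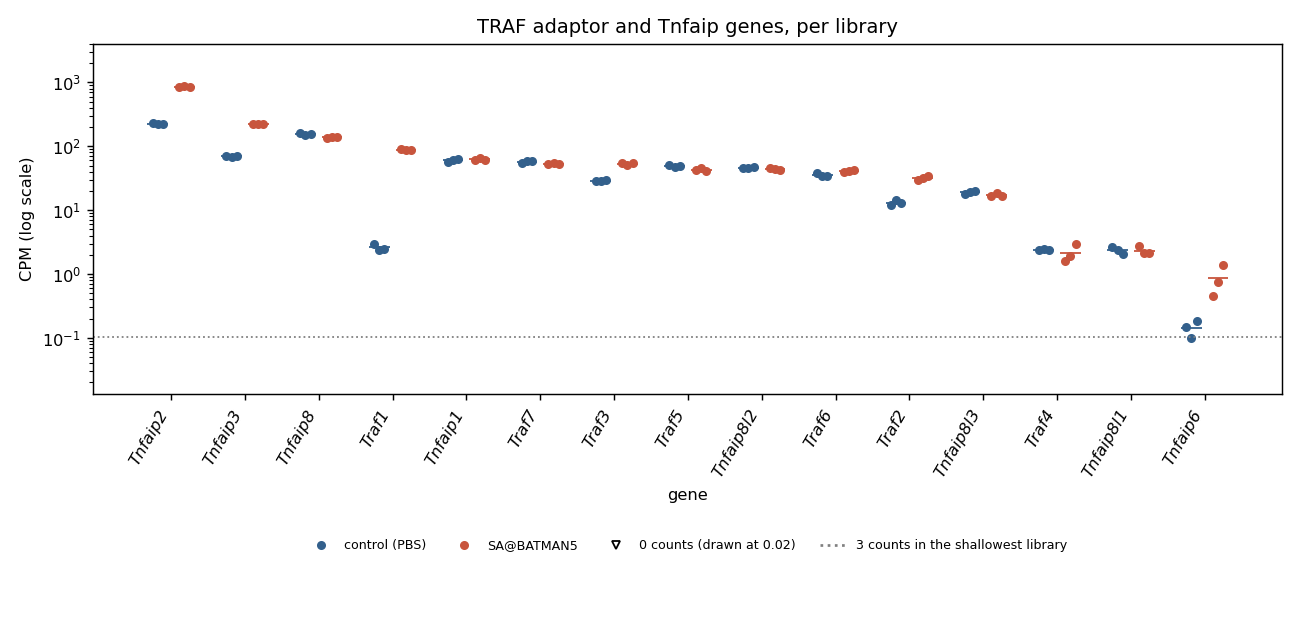
Level of each TRAF and Tnfaip gene in each library, as CPM on a log scale, with the same colours, lines and symbols as the ligand plot. Traf1 rises from 2.60 to 88.6 CPM on average, Tnfaip2 and Tnfaip3 rise at higher levels, and Traf4, Tnfaip1 and Tnfaip8l1 overlap between the groups.

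Partner genes of the pathway were taken from textbook lists. Of 48 partner genes, all tested, 27 were higher and 10 lower, where 29.5% and 28.7% of all tested genes were, and upper-quartile scaling gave 25 and 12. By at least 2-fold 13 were higher, against 9.17% of all tested genes, and 0 lower, against 7.35%, with edgeR (0 also at an unadjusted p under 0.05, and with DESeq2 and limma-voom). The counts of single lists below are to be read against the same shares of all genes. In the list for the receptor complex and death signalling 12 of 21 rose and 3 fell. Its Birc3, the gene of the TRAF2-bound ubiquitin ligase cIAP2, rose from 22.3 ± 0.851 to 127 ± 4.94 CPM (SD, n = 3, adjusted p = 8.01e-15, edgeR). Cflar, the gene of the caspase-8 inhibitor c-FLIP, rose from 136 ± 9.36 to 442 ± 14.8 CPM, and Mlkl, the executor of necroptosis, from 19.4 ± 1.28 to 78.5 ± 6.04 CPM. The death-domain adaptor genes Tradd, Ripk1 and Fadd did not pass the test (log2 fold changes 0.07, 0.06 and 0.05), and Ripk3, which activates MLKL, fell by 0.44 on the log2 scale (SE 0.05). These last 4 genes were chosen after their values were seen.

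In the feedback and deubiquitination list 8 of 13 genes rose and 4 fell, the latter near the 28.7% of all tested genes called lower. Nfkbia, the inhibitor of NF-kappaB, rose by 3.52 ± 0.04, Tnip1, a partner of A20, by 1.95 ± 0.04 and Nfkbie by 2.26 ± 0.05 on the log2 scale. The members that fell were Otulin, Spata2, Tnip3 and Optn, named after their values were seen. Of 8 TRAF partner genes 4 rose and 1 fell, among them Tifa, which binds TRAF6, from 33.6 ± 0.524 to 105 ± 3.00 CPM (SD, n = 3), Trafd1 by 1.31 ± 0.03 and Traf3ip2 by 0.82 ± 0.09 on the log2 scale. In the shedding list 3 of 6 rose and 2 fell. Adam17, the protease that releases TNF and its receptors from the cell surface, rose from 167 ± 0.215 to 494 ± 7.91 CPM (adjusted p = 1.05e-14, edgeR, SD over n = 3). Its cofactor gene Rhbdf2 rose by 0.52 ± 0.04 and Frmd8, which stabilises that cofactor, fell by 0.36 (SE 0.04) on the log2 scale.

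Many members are neighbours in the genome. In RefSeq's GRCm38.p6 order of protein-coding genes, 24 of the 56 members fell into 9 groups in which members had at most 2 other genes between them. In 6 of these groups at least 2 members were called, and in 5 of the 6 they were called in the same direction. This is a description, since Tnfsf15, Tnfsf8, Lta, Tnfrsf4 and Tnfrsf18, which stand in 3 of those 5 groups, passed the filter through 1 group of libraries only, and the share for neighbouring genes at large was not computed. Tnf and Lta rose next to Ltb, Tnfsf15 and Tnfsf8 were both higher, and so were Tnfrsf1b and Tnfrsf8. Tnfrsf4 and Tnfrsf18 were both lower, and so were Tnfsf12, Tnfsf13 and Tnfsfm13, which share sequence. In the group of Tnfrsf26, Tnfrsf22 and Tnfrsf23 the first fell and the others were called higher. The calls on Tnfsf8, Tnfrsf4, Tnfrsf22 and Tnfrsf23 are the weak ones given above.

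Across the start-site regions, the motif letters were found in few members. The NF-kappaB consensus, searched on both strands in 250 upstream bases, was in 4 of the 19 regions of higher members (Tnfaip2, Tnfaip3, Tnfrsf8 and Traf3) and in 0 of the 8 regions of lower members, against 7.25% of all 32851 regions in the table. ISRE letters were in 2 of 19 (Tnfrsf14 and Tnfrsf1b) and 0 of 8, against 2.98% of all regions. GAS letters were in 4 of 19 (Fas, Lta, Tnfaip6 and Tnfrsf1b) and 1 of 8, against 7.02%, and AP-1 letters in 4 of 19 and 1 of 8, against 6.75%. STAT6 sites were in 2 of 19 and 0 of 8 (5.85% of all regions). The letters TATAAA, counted at any place in the window and on either strand, were in 5 of 19 and 0 of 8 (12.4%). In the 12 regions of members not called and the 12 of members not tested, the NF-kappaB consensus was in 1 and 3. There ISRE letters were in 1 and 1, GAS in 1 and 3 and STAT6 sites in 3 and 0. AP-1 letters were in 2 and 1 and TATAAA in 0 and 2. The motifs were thus not particular to the higher members. The GAS, STAT6 and AP-1 motifs read the same on both strands, and Tnfaip3 counts with 2 regions. A match is a description of letters and not evidence of binding, and the lower members had too few regions for a comparison.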

How the data were processed

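RNA sequencing of 6 libraries was deposited as 1 table. Per the file headers, the authors deposited whole-number counts per gene and FPKM, which scales fragments by the length of the transcript and the size of the library. GRCm39 is the build in the submitters' processing notes, and the tools listed there are HISAT2 2.2.0, StringTie 2.1.2 and DESeq2 1.26.0. For the counting tool, annotation and strand setting, the sources used here give no statement, so reads of overlapping and near-identical genes cannot be told apart. Columns named S-5 were read as SA@BATMAN5 and those named N as control, which is a reading of the names. Groups came from sample titles. The authors' own comparison columns were not used.

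The filterByExpr filter, at a minimum count of 10 and a minimum total of 15, left 13474 genes. Counts were scaled by TMM and tested over the whole table by the two-sided quasi-likelihood test of edgeR 4.0.16 in R 4.3.3 (glmQLFit, then glmQLFTest, with a term for group), adjusted over all genes. The common biological coefficient of variation was 6.91%. FPKM served for levels between genes and was not tested. Floors of 3 counts cover counting error only. Chi-square over degrees of freedom was 4.66 to 8.10 for library pairs within a group, above sampling noise, and each library counted once.

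The members and lists were chosen with earlier results of these data known. Values in each library are given for Tnf, Tnfrsf1a, Tnfrsf1b, Cd40, Fas, Ltbr, Tnfrsf11a, Traf1 to Traf7, Tnfaip2 and Tnfaip3, and, among called members with a mean of at least 1 CPM in 1 group, for the 12 largest rises and 10 largest falls. Up to 3 genes of each partner list with the smallest p are named. Other members given by library were chosen after their values were seen. Marker lists covered macrophages, stromal cells, lymphocytes, dendritic cells, neutrophils and endothelium. Alternatives changed the scaling (size factors of DESeq2, upper quartile or totals alone), the filter (none, or 1 CPM in 3 libraries), the test (Wald test of DESeq2 1.42.0, or limma-voom with limma 3.58.1), the threshold (2-fold), the design (replicate number as block) and the libraries (each left out once). Motifs were searched as exact letter patterns on both strands of RefSeq's GRCm38.p6 start-site table, and figures were drawn with matplotlib 3.10.9.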

Additional observations from a re-analysis of the deposited data

How the results depend on the processing

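Over all alternatives but the 2-fold threshold, 18 to 23 members were higher and 11 to 15 lower, and 25 to 27 partner genes were higher and 7 to 12 lower. With a 2-fold threshold 6 members stayed lower, and 13 partner genes were higher and 0 lower (0 also at an unadjusted p under 0.05 with edgeR, DESeq2 and limma-voom). With each library left out, 18 to 23 members were higher and 11 to 13 lower. Among single members, calls were lost for Tnfsf8, Tnfsf11, Tnfrsf4, Tnfrsf10b, Tnfrsf22 and Tnfrsf23 and gained for Tnfrsf1a, Traf7, Tnfaip8l2 and Tnfaip8l3, and the cause was not tested. Log2 fold changes near 0 turned sign. With library totals only and the upper quartile they were -0.0115 and -0.0183 for Ltbr, -0.0245 and -0.0312 for Tnfaip1, -0.0638 and -0.0705 for Tnfrsf21 and -0.0114 and -0.0184 for Tnfsf13b. With a library left out they ranged from -0.463 to 0.0018 for Traf4, from -0.161 to 0.0578 for Tnfaip8l1, from -0.0090 to 0.0217 for Tnfrsf21 and from -0.0336 to 0.131 for Tnfsf13b. Tnfrsf9 and Ltb, too low to test with all 6 libraries, entered some fits without a library, with adjusted p of 0.0164 to 0.0347 and of 0.00960 to 0.0740 (edgeR). The replicate numbers showed no sign of pairing the libraries, with correlations of deviations of 0.04, -0.01 and 0.03 between same-numbered libraries. Those between differently numbered libraries ran from -0.06 to 0.03. With 3 libraries a group this cannot exclude a pairing. With the replicate block 22 members were higher and 12 lower, and 27 and 10 partner genes, the call on Tnfsf8 being lost (adjusted p = 0.0713, edgeR). Members under about 1 CPM rest on few counts, so small changes there were not detectable at this depth.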
